A study of Homo sapiens with 12 samples.

Results

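The 7 genes described here are 5 human Schlafen genes (SLFN5, SLFN11, SLFN12, SLFN12L and SLFN13) and the 2 SAMD9 genes (SAMD9 and SAMD9L), of 58735 genes in the count table. They were chosen by name as restriction factors, that is, proteins with which a cell holds back a virus, and each symbol matched 1 row. The choice was made with earlier results of these data known. Of the 7, 6 passed the filter on low counts (15471 of all genes did) and SLFN12L did not. The cells were THP-1 macrophages, from a human monocytic leukaemia line, given a mimic of miR-122-5p or a control miRNA mimic, at 30 nM, with the transfection reagent RNAimax, for 24 h. Both groups of 6 libraries come from cells that had a rest and then 4 h of LPS, a bacterial lipid that macrophages detect through TLR4; the LPS dose is not in the labels. The question was how miR-122-5p carried by exosomes acts on immune cells. No unstimulated and no mock-transfected group was analysed here, so every value below is from LPS-treated, transfected cells.

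Schlafen proteins share an N-terminal domain, with which several, not all, cut RNA. Several cleave transfer RNAs, which limits the translation of proteins, among them those of viruses. SAMD9 and SAMD9L are large cytosolic proteins that stop protein synthesis in cells infected by poxviruses, and SAMD9 cuts the transfer RNA for phenylalanine. Many members of both families are induced by type I interferon in myeloid and other cells, and LPS makes macrophages release interferon beta.

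Both families form gene clusters. SAMD9 (chromosome 7, 93099513 to 93118023) and SAMD9L (93130055 to 93148369) lie side by side on the reverse strand. The Schlafen genes span chromosome 17 from 35243036 to 35537861 in the order SLFN5, SLFN11, SLFN12, SLFN13, SLFN12L (hg38; each gene protein-coding in GENCODE 29), with SLFN5 alone on the forward strand. The longest annotated coding sequences held 891 codons for SLFN5, 901 for SLFN11 and 897 for SLFN13, the long Schlafens with a helicase-like C-terminal part. They held 578 for SLFN12 and 617 for SLFN12L, which lack that part, and 1589 and 1584 for SAMD9 and SAMD9L.

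The sequence before the start site was read for the members with an entry in the RefSeq promoter table (GRCh38.p14, 250 bases before to 50 after the start). It was read because 5 of the 6 tested members were lower with miR-122-5p and interferon factors are known to bind there. Entries were found for 5 of the 7, all but SLFN5 and SLFN13. The core of the interferon-stimulated response element (GAAA, any 2 bases, GAAA) and the shorter AANNGAAA, which every copy of the core contains, were searched on both strands. The GAS pattern TTCNNNGAA was searched too. The 4 promoters printed are those of the SAMD9 pair, of SLFN12L and, for contrast, of SLFN11, which holds neither the core nor the shorter letters. Capitals mark the matches of the core and the shorter letters, not those of GAS. The regions are chr7:93117930-93118229 for SAMD9, chr7:93148336-93148635 for SAMD9L, chr17:35537629-35537928 for SLFN12L and chr17:35373572-35373871 for SLFN11, each given on the reverse strand.
SAMD9: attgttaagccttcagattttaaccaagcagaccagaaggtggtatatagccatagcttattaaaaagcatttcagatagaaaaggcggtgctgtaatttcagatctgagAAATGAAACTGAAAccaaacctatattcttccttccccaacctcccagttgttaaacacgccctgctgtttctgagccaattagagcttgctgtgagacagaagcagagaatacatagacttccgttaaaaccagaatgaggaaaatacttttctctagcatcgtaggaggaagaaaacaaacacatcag
SAMD9L: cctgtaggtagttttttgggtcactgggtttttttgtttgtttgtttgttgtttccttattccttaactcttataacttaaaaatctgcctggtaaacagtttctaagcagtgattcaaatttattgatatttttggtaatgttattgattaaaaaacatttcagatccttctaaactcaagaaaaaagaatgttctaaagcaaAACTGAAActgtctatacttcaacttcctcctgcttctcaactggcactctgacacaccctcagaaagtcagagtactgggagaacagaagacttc
SLFN12L: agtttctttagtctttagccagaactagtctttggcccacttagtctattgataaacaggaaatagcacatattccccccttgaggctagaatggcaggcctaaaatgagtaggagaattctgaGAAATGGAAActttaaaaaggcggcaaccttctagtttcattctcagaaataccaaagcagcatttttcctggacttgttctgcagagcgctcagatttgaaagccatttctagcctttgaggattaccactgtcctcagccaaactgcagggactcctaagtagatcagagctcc
SLFN11: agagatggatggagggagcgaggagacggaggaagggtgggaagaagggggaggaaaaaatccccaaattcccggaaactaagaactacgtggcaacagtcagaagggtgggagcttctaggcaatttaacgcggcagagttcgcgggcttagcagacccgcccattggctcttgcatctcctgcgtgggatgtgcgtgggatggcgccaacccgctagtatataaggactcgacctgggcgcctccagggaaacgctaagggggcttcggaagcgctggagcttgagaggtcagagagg

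The core matched once in SAMD9 (GAAACTGAAA, bases -136 to -127 from the start) and once in SLFN12L (GAAATGGAAA, -126 to -117), against 3.57% of all 35116 RefSeq promoters of the same length. SAMD9L held only the shorter letters (AACTGAAA, -46 to -39), and SLFN12 held them at 2 places (-74 to -67 and -11 to -4), against 22.8% of all promoters. GAS matched in SLFN11 (TTCCCGGAA, -182 to -174) and at 2 places in SLFN12L (-132 to -124 and -86 to -78), against 7.66% of all promoters. SAMD9, SAMD9L and SLFN12 held no GAS match. GC content was 39.7% in the SAMD9 and 34.3% in the SAMD9L promoter and 58.0% in that of SLFN11. These are matches of letters, not measured sites.

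When miR-122-5p was compared with the control mimic after LPS, 5 of the 6 tested members were lower with miR-122-5p and 0 were higher. At the same threshold (adjusted p under 0.05, edgeR quasi-likelihood test, Benjamini-Hochberg over all genes) 26.2% of all tested genes were lower and 24.3% higher. The SAMD9 pair had the largest changes among the tested members, near 3-fold, followed by SLFN12, SLFN11 and SLFN5. SLFN13 did not pass the test. SAMD9, SAMD9L and SLFN12 fell at least 2-fold, which held for 5.55% of tested genes. The call of SLFN12 ended when GC slope was modelled, which left 4 members lower. The median log2 fold change of the 6 was -1.15, beside 0.0071 over all tested genes. In the 5 genes that passed, the values of the groups did not overlap, as held for 16.1% of all tested genes in the lower direction. Bulk RNA cannot tell fewer expressing cells from less RNA per cell. The labels do not say that the libraries came from separate cultures, so each p measures only the spread between libraries, which may be technical.

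**Figure D1:**
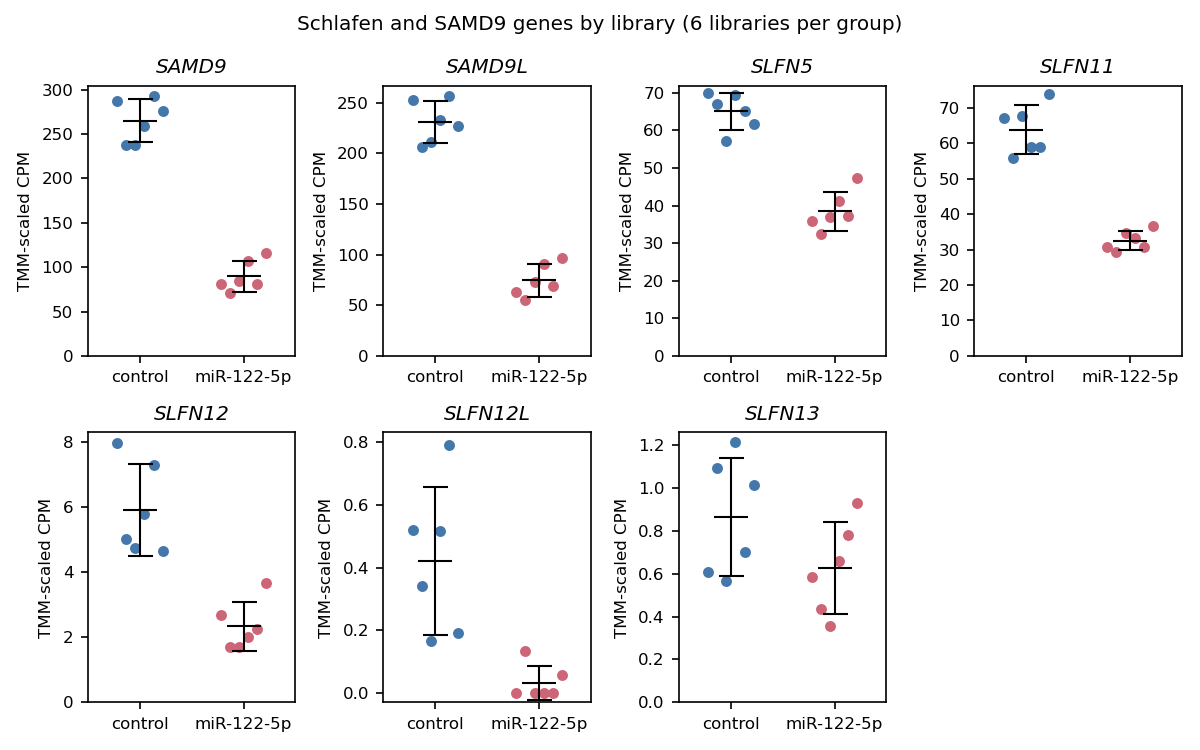
TMM-scaled CPM (vertical axis, from 0) of each gene in the 6 control and 6 miR-122-5p libraries; points are libraries, ordered by replicate number from left to right, and bars are the mean ± SD. Groups are apart in every panel but that of SLFN13, and 4 miR-122-5p libraries stand at 0 for SLFN12L.

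SAMD9, a restriction factor for poxviruses, was the most abundant member. In CPM (counts scaled to a common library size with TMM factors) its lowest, median and highest values were 70.8, 82.6 and 115.8 with miR-122-5p and 237.1, 267.8 and 292.9 with the control mimic. The highest library with miR-122-5p, number 6, stood well below the lowest control library, number 3. The means were 89.8 ± 17.4 and 265.1 ± 24.4 CPM (SD, n = 6 each), a log2 fold change of -1.56 ± 0.10 (SE; adjusted p = 6.70e-11), and 2.19% of tested genes fell more.

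SAMD9L, the neighbouring paralogue with the same block on translation and a known role in blood cell growth, ran from 55.4 through a median of 70.9 to 97.1 CPM with miR-122-5p. In controls it ran from 206.1 through 229.5 to 256.3 CPM. Libraries 2 and 6 were again the lowest and the highest with miR-122-5p, and no value crossed between groups. The means were 74.7 ± 16.1 and 230.8 ± 20.6 CPM (n = 6 each), a change of -1.63 ± 0.11 (adjusted p = 1.11e-10).

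The pair varied together from library to library. With group means removed from log2 CPM, the gene most like SAMD9 of 8335 compared was SAMD9L (Pearson r = 0.97, Spearman rho = 0.95, 12 libraries), and the gene most like SAMD9L was SAMD9. Without the 2 libraries farthest from the median of SAMD9, r was 0.94. Within the miR-122-5p and the control libraries alone, r was 0.98 and 0.94. These are descriptions over libraries that share each library's depth and GC trend, with no test. The SAMD9 transcripts shared no 50-base word with the annotated transcripts of any other gene, SAMD9L included, and no other gene's exons overlapped either gene.

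**Figure D2:**
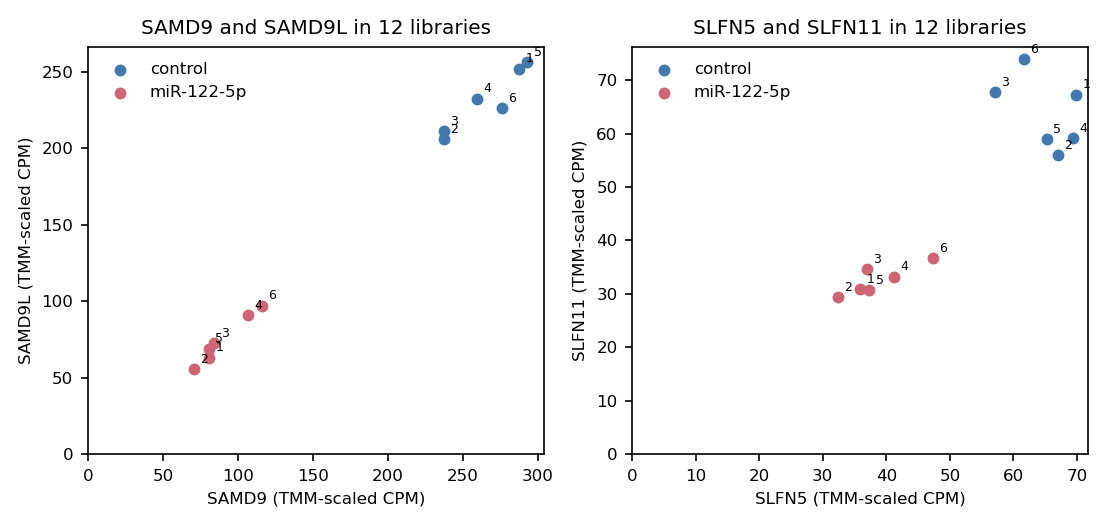
TMM-scaled CPM of SAMD9L against SAMD9 (left) and of SLFN11 against SLFN5 (right), 1 point per library, labelled with its replicate number, axes from 0. In the left panel both genes rise together over the libraries, from 70.8 and 55.4 CPM to 292.9 and 256.3; in the right panel the control libraries scatter.

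SLFN5, which represses transcription of herpes simplex virus and some interferon target genes, had 32.4, 37.2 and 47.4 CPM (lowest, median, highest) with miR-122-5p. Controls had 57.1, 66.2 and 69.9 CPM. Library 6 was the highest with miR-122-5p and still under control library 3, the lowest of its group. The means of 38.5 ± 5.18 and 65.1 ± 4.91 CPM (n = 6 each) gave a log2 fold change of -0.76 ± 0.09 (adjusted p = 2.42e-07).

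SLFN11, which cleaves transfer RNAs, restricts HIV-1 translation and sensitises cancer cells to DNA damage, had 29.5, 32.0 and 36.7 CPM with miR-122-5p. Its control values were 55.9, 63.2 and 74.0 CPM. The spread with miR-122-5p was the narrowest of all members (coefficient of variation 8.41%), and the groups did not overlap. The means were 32.6 ± 2.74 and 63.8 ± 6.91 CPM (n = 6 each), a change of -0.97 ± 0.08 (adjusted p = 3.31e-09).

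SLFN12, an RNase that the phosphodiesterase PDE3A stabilises, was expressed at a few CPM. It had 1.70, 2.14 and 3.66 CPM with miR-122-5p, from 51 to 130 counts in a library, and 4.67, 5.40 and 7.99 CPM in controls, from 143 to 276 counts. The groups were apart, with library 6 of miR-122-5p nearest to the controls. The means of 2.34 ± 0.746 and 5.92 ± 1.41 CPM (n = 6 each) gave a change of -1.34 ± 0.20 (adjusted p = 7.96e-06). With the GC slope of each library in the model the change was -0.69 ± 0.31 and did not pass (edgeR adjusted p = 0.128, in a range over settings from 1.17e-11 to 0.128). Its larger error than that of SLFN5 or SLFN11 went with the lower count.

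SLFN13, which cleaves transfer and ribosomal RNA, was close to the limit of the count filter, with 13 to 33 counts in a miR-122-5p library and 17 to 47 in a control library. Its values of 0.356, 0.621 and 0.930 CPM with miR-122-5p overlapped the 0.565, 0.855 and 1.21 CPM of controls. The log2 fold change was -0.47 ± 0.33 (adjusted p = 0.247), with a 95% confidence interval from -1.15 to 0.21. At this depth neither no change nor a fall like that of SLFN11 could be told from the measured value.

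SLFN12L, a short Schlafen next to SLFN12 and SLFN13 whose function is little known, had 0 counts in 4 of the 6 miR-122-5p libraries and 4 and 2 counts in libraries 2 and 6. Control libraries held 5 to 26 counts each, with none at 0. Over each group this came to 6 against 87 counts, a 14-fold higher share of all counts in controls (95% exact counting interval 6.18 to 39.2, which covers counting error only). Library 2 held most of the miR-122-5p counts: without it the ratio was 35.9 (9.63 to 300.8, from 2 against 87 counts). The CPM values of the groups did not overlap. Without the low-count filter the edgeR log2 fold change was -3.63 ± 0.84 (adjusted p = 0.000139), in a fit where 13.3% of 30198 genes were lower. Of the SLFN12L exon bases 7.69% overlap an exon of the opposite strand, and the strand setting of the counting is not given in the sources used here.

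Near-identical stretches could blur some Schlafen values. Of all 50-base words in SLFN13 transcripts 7% also occur in transcripts of other genes, mostly SLFN11, and 9.69% of SLFN11 words are shared in the same way. The share was 1.32% for SLFN12, 1.75% for SLFN12L and 0.196% for SLFN5. The SLFN13 counts were low beside those of SLFN11, its closest relative by this measure.

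Levels were compared between genes only per kb of annotated exon. In controls SAMD9 stood at 38.7 ± 3.56 CPM per kb (SD, n = 6) and SAMD9L at 32.4 ± 2.89. Their ranges overlapped, yet SAMD9 was the higher in each of the 6 control and each of the 6 miR-122-5p libraries. SLFN11 followed at 10.7 ± 1.15, SLFN5 at 6.07 ± 0.458 and SLFN12 at 1.66 ± 0.395 CPM per kb, without overlap between neighbours in this order. SLFN13 (0.0927 ± 0.0295) and SLFN12L (0.0876 ± 0.0491) overlapped and held the bottom.

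With miR-122-5p the order of the means per kb of exon stayed the same and its steps changed. SAMD9 stood at 13.1 ± 2.53, SAMD9L at 10.5 ± 2.26, SLFN11 at 5.45 ± 0.458, SLFN5 at 3.60 ± 0.483 and SLFN12 at 0.657 ± 0.210 CPM per kb (n = 6 each). SAMD9L was 1.92 times SLFN11 there, against 3.03 times in controls. SLFN13 stood at 0.0669 ± 0.0229 and SLFN12L at 0.00661 ± 0.0115. The order of these low genes in controls turned with the length used: per kb of the longest transcript SLFN12L stood at 0.135 and SLFN13 at 0.102 CPM, and with miR-122-5p at 0.0102 and 0.0737.

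Whether members changed by unequal amounts was tested within libraries, as the log2 CPM of a member minus that of another, which no library scaling can alter. Of 15 pairs of tested members, 8 passed a two-sided exact permutation test between groups after adjustment over the pairs. The SAMD9 pair fell further than the 2 abundant long Schlafens. SLFN5 minus SAMD9 was -1.21 ± 0.100 (SD, n = 6) with miR-122-5p and -2.02 ± 0.137 in controls, a difference of 0.82 without overlap (exact p = 0.00216, adjusted 0.00464). For SLFN11 minus SAMD9 the difference was 0.61, and against SAMD9L the differences were 0.89 for SLFN5 and 0.68 for SLFN11 (exact permutation p = 0.00216 each, adjusted 0.00464).

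SLFN12 also fell further than SLFN5 (difference in SLFN5 minus SLFN12 of 0.58, exact permutation p = 0.0108, adjusted 0.0203). It fell further than SLFN13 as well (difference in SLFN12 minus SLFN13 of -0.90, adjusted exact p = 0.00464). Both differences passed after correction for GC content and length (adjusted exact p = 0.0122 and 0.00541), but neither was tested with the GC slope covariate. In the fit with that covariate SLFN12 stood at -0.69 ± 0.31, SLFN5 at -0.56 ± 0.13 and SLFN13 at -0.59 ± 0.60 (SE). SLFN13 differed from SAMD9 and SAMD9L by 1.14 and 1.21 (adjusted exact p = 0.00464 each). SLFN12 could not be told from SAMD9 (0.24, adjusted exact p = 0.186), SAMD9L (0.31, 0.127) or SLFN11 (0.37, 0.142).

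A further 2 pairs did not pass, but passed under 1 or 2 alternative settings. SAMD9 minus SAMD9L was 0.27 ± 0.064 with miR-122-5p and 0.20 ± 0.046 in controls (SD, n = 6 each), a difference of 0.07 that did not pass (exact permutation p = 0.0519, adjusted 0.0866). It passed without control library 6 (difference 0.09, adjusted exact p = 0.0162) and after correction for GC content and length (0.11, adjusted exact p = 0.0162), with adjusted p from 0.0162 to 0.153 over all settings. SLFN5 minus SLFN11 differed by 0.21 (exact permutation p = 0.0779, adjusted 0.117). It passed after the GC and length correction (0.32, adjusted exact p = 0.0162), with a range over settings from 0.0162 to 0.206.

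All 6 tested members have transcripts of low GC content (36.0 to 43.8%), and GC content moved with the groups. The slope of each library's log2 CPM on transcript GC content, per 10 percentage points, ran from 0.0336 to 0.229 with miR-122-5p and from -0.318 to 0.0119 in controls. Among the 4286 tested genes in the members' GC range, 42.6% were lower and 8.40% higher, with a median log2 fold change of -0.25. Within groups too, log2 CPM of SAMD9 and SAMD9L went with this slope (r = -0.69 and -0.64 over 12 libraries with group means removed), as did SLFN11 (-0.60), SLFN12 (-0.57) and SLFN5 (-0.45), but not SLFN13 (0.085).

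With each library's trends with GC content and transcript length removed, the same 5 members were lower, and 23.5% of all tested genes. SAMD9 then stood at -1.20 ± 0.07, SAMD9L at -1.31 ± 0.08, SLFN11 at -0.76 ± 0.07, SLFN12 at -1.06 ± 0.18 and SLFN5 at -0.44 ± 0.07. SLFN13 was at -0.22 ± 0.33. The median of genes in the members' GC range was 0.03 after this correction.

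With the GC slope of a library added to the model, 4 members were lower, beside 12.2% of all genes. SAMD9 stood at -1.13 ± 0.14, SAMD9L at -1.19 ± 0.15, SLFN11 at -0.72 ± 0.12 and SLFN5 at -0.56 ± 0.13. Over all settings the edgeR, DESeq2 or limma adjusted p ran from 2.63e-57 to 2.54e-06 for SAMD9 and from 1.39e-15 to 0.00434 for SLFN5. SLFN12 did not pass. Since the slopes of the groups did not overlap, slope and group cannot be told apart, and the part of the slope in these changes was not tested further.

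**Figure D3:**
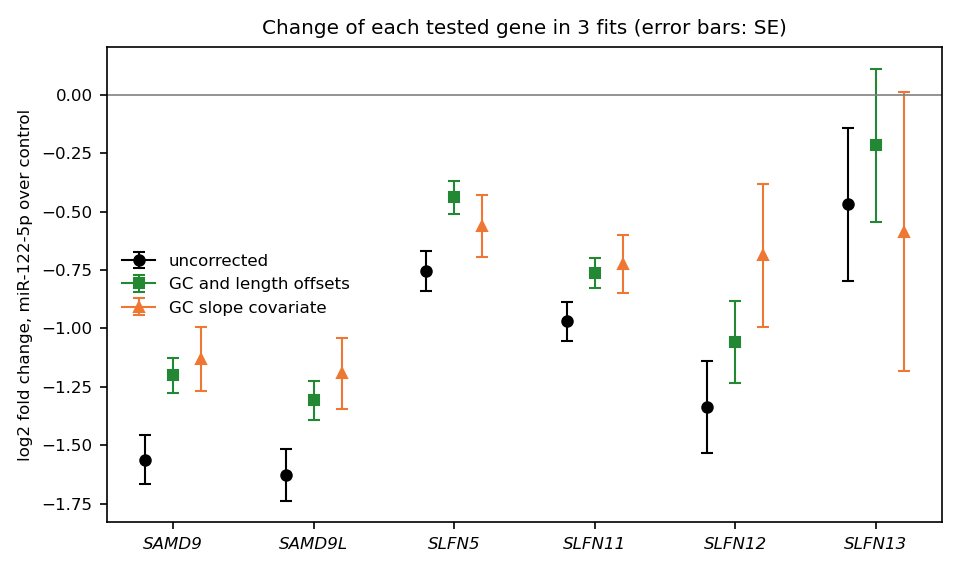
Log2 fold change (miR-122-5p over control, vertical axis) of the 6 tested members without correction, with GC and length offsets and with the GC slope covariate; bars are SE. SAMD9 moves from -1.56 to -1.20 and -1.13, every point lies below 0, and the bars of SLFN13 are the widest.

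The miRNA itself pairs with its targets through bases 2 to 8, the seed, shown in capitals. Its sequence is printed with the member sites that match it, taken from the longest 3′ UTR that GENCODE 29 gives each gene, because a direct target would carry such a site. The miRNA is in RNA letters and the sites in DNA letters, each site with the bases before it and its match in capitals.
miR-122-5p: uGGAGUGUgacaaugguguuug
SAMD9L 7mer-m8: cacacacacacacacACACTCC
SLFN5 7mer-A1, first: atgatcataccagtgCACTCCA
SLFN5 7mer-A1, second: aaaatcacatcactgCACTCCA
SLFN12L 7mer-A1: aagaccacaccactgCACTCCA

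No member held the 8-base match ACACTCCA in its 3′ UTR, which 3.5% of 12892 tested genes with a 3′ UTR hold. SAMD9L held 1 match to bases 2 to 8 (7mer-m8, the strongest class of 6.27% of genes), at the end of a run of CA repeats. SLFN5 held 2 matches of 7mer-A1 and a 6mer in a UTR of 7767 bases, SLFN12L 1 match of 7mer-A1 and SLFN13 a single 6mer. The strongest class was 7mer-A1 in 16% of genes and 6mer in 14.2%. SAMD9, SLFN11 and SLFN12 had 0 matches in the 3′ UTR. In the coding sequence SAMD9 held 2 matches, the best a 7mer-m8, and SAMD9L held 1, a 6mer. SAMD9, SAMD9L and SLFN5 stood at -1.56, -1.63 and -0.76. The matches differ in class and region, and with 7 genes no relation to the changes was tested.

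The set was then read beside the other genes of its pathway. Of 18 interferon-induced proteins that cut, sense or bind RNA or block translation, 17 were lower and 0 higher, with a median log2 fold change of -1.10. Over all tested genes 26.2% were lower and 24.3% higher. OAS2 and OAS1, sensors of double-stranded RNA, changed by -1.42 ± 0.07 and -1.16 ± 0.06. IFIT1, which binds viral RNA caps, changed by -1.65 ± 0.08 and OASL by -1.58 ± 0.08 (adjusted p = 1.01e-12 and 1.48e-12).

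Of 17 genes that send, receive or carry the interferon signal, 16 were tested, 9 lower and 2 higher, with a median of -0.26. The shares over all tested genes were 26.2% lower and 24.3% higher. Interferon beta (IFNB1) stood at -3.90 ± 0.12, interferon lambda 1 (IFNL1) at -3.70 ± 0.15, and the kinase JAK2 at -2.26 ± 0.13. With the GC and length offsets 7 of these genes were lower and 0 higher, and with the GC slope covariate 6 and 0. Of all 15471 tested genes 3630 (23.5%) were lower and 3608 higher with the offsets. In the fit with the slope covariate 1887 (12.2%) were lower and 1117 higher.

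Genes that act on transfer RNAs or stalled ribosomes, the processes that Schlafen and SAMD9 proteins engage, went both ways, as did tested genes in general. Of 20, 7 were lower and 6 higher (median -0.03), beside 26.2% and 24.3% of all tested genes. RTCB, the ligase that joins the pieces of cut transfer RNAs, fell by 1.10 ± 0.08 on the log2 scale and the helicase ASCC3 by 0.57 ± 0.09, while the collision sensors EDF1 and ZNF598 rose by 1.05 ± 0.13 and 0.83 ± 0.10. With the GC slope covariate 3 were lower and 3 higher. In that fit 1887 (12.2%) of all 15471 tested genes were lower and 1117 higher. With single libraries left out the lower count ran from 3 (without miR-122-5p library 3) to 7 (without miR-122-5p library 4). It was 4 without miR-122-5p library 2 or 5 or control library 1, 2 or 4, one at a time. The higher count stayed at 6 or 7 when any single library was left out. Several of the lower genes lay near the threshold (edgeR adjusted p from 0.0178 to 0.0418). Of 16 known partners or targets of Schlafen proteins 15 were tested, 5 lower and 3 higher (median -0.15), beside the same shares of all tested genes (26.2% and 24.3%).

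Among these partners the RNA of the replication licensing factor CDT1 rose by 1.41 ± 0.22, from a mean of 2.16 CPM in controls to 5.71. SLFN11 promotes the degradation of CDT1 protein, which was not measured here. RPA1, a subunit of the single-strand binding complex that recruits SLFN11, rose by 0.77 ± 0.12. The ubiquitin ligase parts CUL4B and DDB1 stood at -0.79 ± 0.09 and 0.30 ± 0.06. With the GC and length offsets 1 partner was lower and 3 higher, and with the GC slope covariate 1 and 1. Of all 15471 tested genes 3630 (23.5%) were lower and 3608 higher with the offsets. In the fit with the slope covariate 1887 (12.2%) were lower and 1117 higher. PDE3A, the partner of SLFN12, was under the count filter (0.0675 ± 0.0552 and 0.251 ± 0.257 CPM, n = 6 each).

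**Figure D4:**
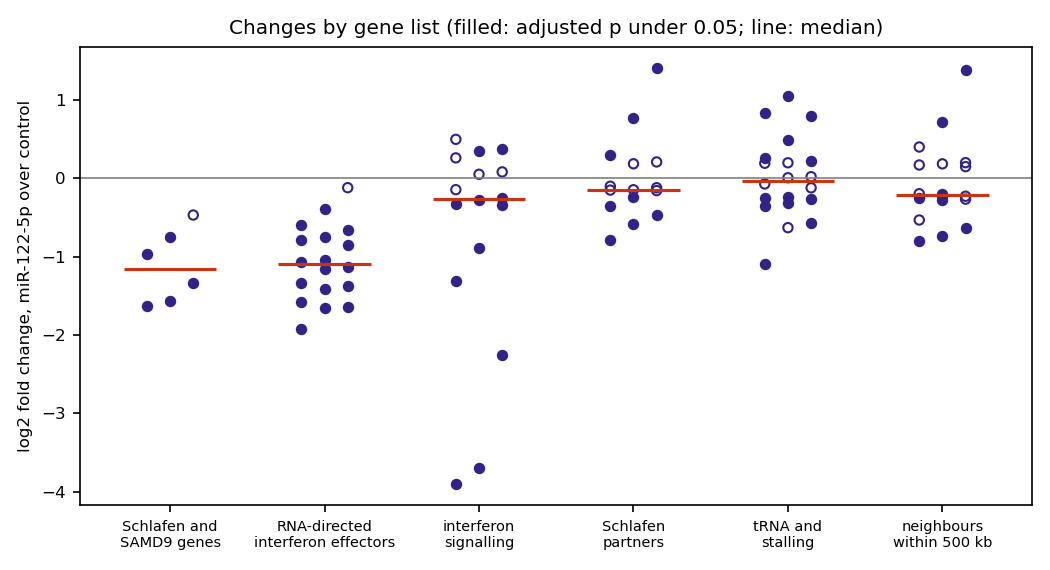
Log2 fold change (miR-122-5p over control) of the tested genes of each list; filled points passed an adjusted p of 0.05, open points did not, and red lines are medians. The Schlafen and SAMD9 genes (median -1.15) and the RNA-directed interferon effectors (-1.10) lie low, while the other lists spread on both sides of 0.

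Genes around the clusters went both ways. Of 18 tested genes within 500 kb of either cluster, 6 were lower and 2 higher (median -0.21), beside 26.2% and 24.3% of all tested genes. On chromosome 17 NLE1, a ribosome assembly factor 100.7 kb from the cluster, rose by 1.38 ± 0.16, and TAF15, an RNA-binding protein, rose by 0.72 ± 0.13. The chemokine CCL5 and HEATR9, over 300 kb away, fell by 0.63 ± 0.07 and 0.74 ± 0.14. On chromosome 7 VPS50, an endosomal sorting gene 84.0 kb from SAMD9L and named after its value was seen, was the 1 of 3 that passed (-0.80 ± 0.18, adjusted p = 0.000764). The counts differed with the GC corrections: 3 of the 18 were lower and 4 higher with the GC and length offsets, and 1 and 2 with the GC slope covariate. Of all 15471 tested genes 3630 (23.5%) were lower and 3608 higher with the offsets. In the fit with the slope covariate 1887 (12.2%) were lower and 1117 higher.

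**Figure D5:**
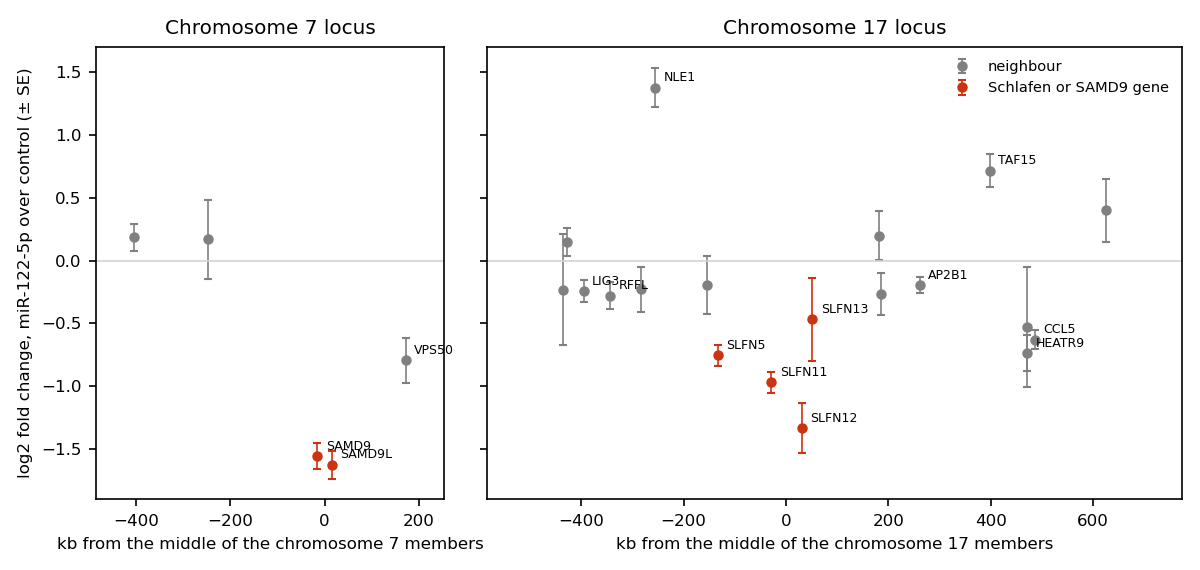
Log2 fold change ± SE of tested genes against distance in kb from the middle of the chromosome 7 (left) and chromosome 17 (right) members; red points are SAMD9 or Schlafen genes, grey points their neighbours, and called neighbours are named. SLFN12L was not tested and is not drawn. The SAMD9 pair lies lowest, below -1.5, and NLE1 highest, at 1.38.

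Other genes whose log2 CPM followed a Schlafen member over the 12 libraries, with group means removed, were named by rank of Pearson r. For SLFN5 these were RBM5 (r = 0.96, Spearman rho = 0.93), RAB2B (0.96, 0.97) and ZNFX1 (0.95, 0.97). For SLFN11 they were FNDC3B (0.93, 0.83), PDS5B (0.92, 0.80) and DMPK (0.92, 0.95). For SLFN12 they were CTSO (0.93, 0.85), GRAMD2B (0.91, 0.89) and SDC4 (0.90, 0.89). For SLFN13 they were BATF2 (0.85, 0.90), ZNF274 (0.84, 0.80) and ARHGEF11 (0.82, 0.76).

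For SAMD9 the next after SAMD9L were LAMP3 (r = 0.97, rho = 0.97) and NOLC1 (0.97, 0.94), and for SAMD9L after SAMD9 they were PELI1 (0.95, 0.90) and FASTKD1 (0.95, 0.92). These genes differed in their change between groups. LAMP3 fell by 1.79 ± 0.15, while NOLC1 rose by 0.64 ± 0.09 and DMPK by 0.48 ± 0.10. Without the 2 libraries farthest from the median, r of these 16 pairs and of SAMD9 with SAMD9L ran from 0.74 to 0.95. Over the 12 libraries the members themselves were less alike outside the SAMD9 pair. There r ran from 0.86 (SLFN5 with SAMD9L) to -0.068 (SLFN11 with SLFN13, a gene of low counts). Without the 2 libraries farthest from the median of SLFN5 the first was 0.64. Without the 2 farthest from the median of SLFN11 the second was -0.61. For some member pairs r differed between the groups, each of 6 libraries, and this difference was not tested. SLFN5 followed SAMD9 and SAMD9L with r = 0.97 and 0.96 within the miR-122-5p libraries, and with 0.39 and 0.47 within controls. For SLFN5 with SLFN11, r was 0.86 with miR-122-5p and -0.51 in controls.

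The libraries held 29473750 to 35684464 counts with miR-122-5p and 31019890 to 39468157 in controls. Control libraries 1 and 6 stand apart on principal components, and without both the same number of members, 5, was lower (24.1% of all genes), with SAMD9 at -1.51 and SLFN11 at -0.89. Of 12 macrophage markers 10 were tested, 5 lower (CD163, FCER1G, CSF1R, AIF1 and CD14, from -0.81 to -0.36) and 2 higher (TYROBP at 0.30 and ITGAM at 0.19). Their summed level ran from 2481 to 3012 CPM with miR-122-5p and from 2462 to 2825 in controls. CD68 averaged 0.239 and 0.216 CPM and MRC1 0 and 0.0729, so both of these markers were at or near 0 in the count table. Whether exons of other genes overlap those of CD68 was not examined. Markers of other lineages summed to 268.9 to 305.8 and 260.8 to 280.5 CPM, nearly all of it PECAM1, which monocytic cells express. Of these 16 markers 6 were tested, with NCAM1 lower (-0.53 ± 0.11), VWF (0.42 ± 0.11) and CD79A (0.56 ± 0.19) higher and 3 not passing, and CD3D, CD3E, CD2 and EPCAM had 0 counts in all libraries. Over all tested genes 26.2% were lower and 24.3% higher. The part of these marker levels in the members' changes was not tested.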

How the data were processed

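RNA-seq counts of 12 libraries (6 per group) were analysed. The authors deposited 1 table of raw read counts per gene, not normalised; hg38, HISAT2 2.0.5 and featureCounts 1.5.0-p3 are listed, without settings, per the submitters' processing notes. For strand setting and annotation release: not given in the sources used here. Columns were assigned by name and number to the sample titles. GENCODE 29 gave symbols, coordinates and transcripts, and RefSeq (GRCh38.p14) the promoters and the miRNA.

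In R 4.3.3 with edgeR 4.0.16, genes were filtered with filterByExpr, scaled by TMM and compared by the quasi-likelihood test, with p-values adjusted (Benjamini-Hochberg) over 15471 genes. Log2 CPM used a prior count of 2. GC and length offsets were natural splines with 4 degrees of freedom per library; 6 genes without a transcript sequence took the median. Alternatives were DESeq2 1.42.0, limma 3.58.1 (voom), other scalings and filters, a replicate block, a minimum fold change and libraries left out. The fit was tested on simulated data with planted changes. Named genes were all members, up to 4 called genes of smallest p from each of the 4 pathway lists and the cluster neighbours, and the 3 most alike genes per member (mean log2 CPM of at least 3); cell markers, VPS50 and PDE3A are named outside it.

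Some list genes are not reported here by name. The members and lists were chosen with earlier results of these data known. No library was a copy of another of its group: chi-square over its degrees of freedom ran from 7.89 to 73.3 for pairs.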

Additional observations from a re-analysis of the deposited data

How the results depend on the processing

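Of the member changes, those of SAMD9, SAMD9L, SLFN5 and SLFN11 kept their direction and their call under all 25 alternatives, and SLFN13 stayed uncalled under all 24 that tested it. SLFN12 kept its call under 24 of 25, the exception being the GC slope covariate. The number of members called ran from 4 to 6 (6 without the low-count filter, where SLFN12L is tested), and stayed at 5 when any single library was left out. The RNA-directed effectors stayed at 17 called genes throughout. Called interferon signalling genes numbered 11, but 5 against a minimum fold change of 1.2, 7 with GC and length offsets and 6 with the GC slope covariate. Schlafen partners numbered 8, but 5, 4 and 2 under these 3 settings. Transfer RNA and stalling genes numbered 13, but 6 against the minimum fold change, 6 with the GC slope covariate and 7 at an adjusted p under 0.01. Cluster neighbours numbered 8, but 5 with library totals, 5 against the minimum fold change, 3 with the GC slope covariate and 5 at an adjusted p under 0.01. The last setting and the minimum fold change are stricter by construction; for the others the cause was not tested. Over all 15471 tested genes 4054 were lower and 3756 higher in the main fit. Against the minimum fold change these counts were 2580 and 2264, and at an adjusted p under 0.01 they were 3209 and 2821. With library totals they were 3624 and 4132, and with GC and length offsets 3630 and 3608. The GC slope covariate left 1887 lower and 1117 higher (37.2% of calls higher, against 48.1% without it).

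Per kb of the longest transcript in place of all exons, SLFN11 stood at 12.7 CPM per kb in controls and 6.48 with miR-122-5p, and SLFN12 at 2.33 and 0.921; SLFN12L stood above SLFN13 in controls (0.135 against 0.102). The shorter length sets these. Same-numbered libraries of the groups did not deviate together (r from -0.105 to 0.066 over genes, and 1 of 6 miR-122-5p libraries correlated best with its own number), so they share only a number. With the replicate block the same number of members was called, with SAMD9 at -1.58. For pair differences the blocked exact test, on 6 pairs, called 0 of 15 after adjustment (its smallest possible unadjusted p is 0.0313); unblocked, 8 were called. Depth limits SLFN13 and SLFN12L, with under 50 counts per library.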

Other observations

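The other Schlafen genes of the table were all but silent in these cells. SLFN14, which lies beside SLFN12L and is known from platelets and reticulocytes, had 0 counts in all 12 libraries, which allows up to 0.00734 CPM over all libraries together (3 counts of the total, counting error only). SLFNL1, a distant relative on chromosome 1, had 26 counts over the 6 miR-122-5p libraries (2 to 8 each) and 10 over the 6 controls (0 to 4 each), too few to pass the count filter.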
